A study of Rattus norvegicus with 4 samples.

Results

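The genes described here belong to the YAP-TEAD system: the coactivator Yap1, the DNA-binding factors Tead1 and Tead4, the cofactor Vgll3, the pathway regulators Lats2, Ajuba and Amotl2, and the target genes Ccn1, Ccn2 and Ankrd1. Members were all probe sets annotated to exactly 1 gene symbol, that symbol being one of these 10. This gave 12 probe sets for 9 genes, of 23707 probe sets and 12922 genes tested in all. Yap1 had no probe set of that kind and was not analysed here. The RNA came from smooth muscle cells of the rat aorta, which contract the arterial wall, and Affymetrix arrays read it as probe set intensities. The tested cells received PDGF-BB, a mitogen for smooth muscle, at 30 ng/mL for 3 h (2 arrays), and their controls received the vehicle, 10 mM acetic acid with 0.2% bovine serum albumin, likewise for 3 h (2 arrays). All the cells had been plated in 10% fetal bovine serum for 24 h and then kept for 72 h without serum and insulin. The study looked for early genes of smooth muscle phenotypic modulation. The labels give no strain, passage or age, and they leave unsaid whether a group holds separate cultures, so p-values measure only the spread between these arrays, which may be technical.

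YAP is a transcriptional coactivator that binds no DNA by itself and acts on promoters and enhancers through TEAD factors. The Hippo kinases Stk3, Stk4, Lats1 and Lats2 restrain it by phosphorylation, which keeps it in the cytoplasm, while actin tension, serum lipids and cell spreading favour its entry into the nucleus. Among the best known targets are the matricellular proteins Ccn1 and Ccn2 and the muscle ankyrin repeat protein Ankrd1, and several targets, such as Lats2 and Amotl2, are themselves inhibitors of the pathway. In vascular smooth muscle, YAP and TEAD factors have been linked to proliferation and to the expression of contractile genes.

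After 3 h of PDGF-BB, the 3 classical targets had different values, and the differences between these genes were not tested. Ankrd1 was 1.99-fold lower than in vehicle-treated cells. Ccn1 was higher on both PDGF-BB arrays but by unequal amounts, and limma did not call it. Ccn2 had a log2 fold change of -0.03 that limma did not call. Its arrays were all above 8000, and among genes with a mean above 8000 limma called 5.6%. Of the 9 member genes, limma called 1, Ankrd1, at an adjusted p under 0.05, while 27.7% of all genes were called. In 7 of the 9 the arrays of the groups did not overlap, 2 higher and 5 lower with PDGF-BB, against 67.5% of all genes. The median log2 fold change of the 9 members was -0.08, and that of all genes was -0.03. In bulk RNA, fewer cells with a transcript and less of it per cell cannot be told apart. Differences are given as PDGF-BB minus vehicle, in log2(intensity + 16), a scale that understates changes of dim genes. The count of called members depended on the scaling between arrays: 0 higher and 1 lower as deposited, 1 and 1 with array medians subtracted, 0 and 4 after quantile normalization and 1 and 2 after cyclic loess. Calls over all 23707 probe sets moved as well. They were 2712 higher and 3067 lower as deposited, 3831 and 3126 with medians subtracted, 3287 and 4306 after quantile normalization and 3656 and 3474 after cyclic loess.

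**Figure D1:**
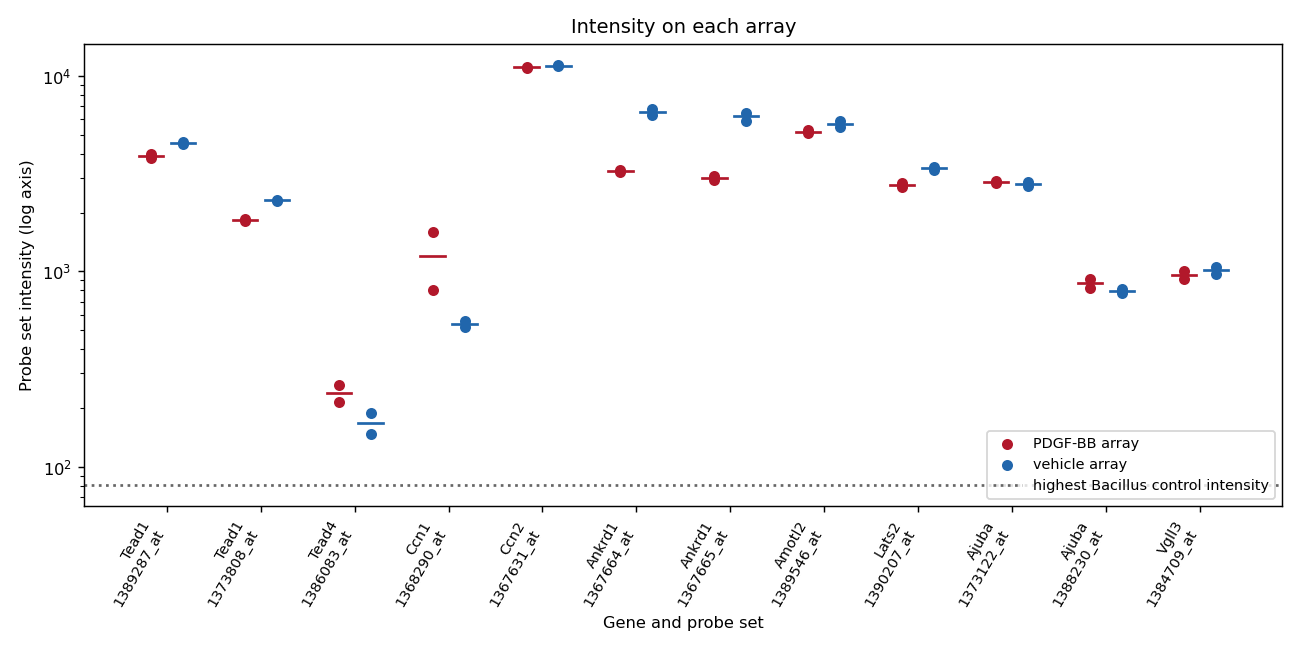
Probe set intensity (vertical, log axis) of each member on the 2 PDGF-BB arrays (red, left) and the 2 vehicle arrays (blue, right), with short lines at the group means and a dotted line at 80.3, the brightest Bacillus control. Both Ankrd1 probe sets lie lower with PDGF-BB, and the PDGF-BB arrays of Ccn1 lie apart from each other, at 803 and 1584.

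The labelled cell type was checked on markers. All 8 smooth muscle markers measured were above 80.3, the brightest value among 27 Bacillus control probe sets and a rough yardstick of background, and their summed intensity was 36769 to 37723 on the PDGF-BB arrays and 38828 to 39365 on the vehicle arrays. Of these 8, limma called 3 lower, Lmod1 (-1.70), Smtn (-0.79) and Myh11 (-0.70), and the sum is mostly that of Acta2, Tagln and Cnn1, which were not called. Acta2, Tagln and Cnn1 were above 8000 on every array. Among genes with a mean above 8000 limma called 5.6%, against 27.7% of all genes. Whether such bright probe sets still respond in proportion to RNA was not tested. Leaving out 1 array ended the call of Smtn without vehicle replicate 1 (adjusted p 0.0879 by limma), vehicle replicate 2 (0.0641) or PDGF-BB replicate 2 (0.0531), and that of Myh11 without the same arrays (0.148, 0.127 and 0.0579). Endothelial markers (3 of 5 measured) reached at most 35.1, leukocyte markers (5 of 5) 73.4 and adventitial fibroblast markers (4 of 4) 109, with summed intensities of 45.1 to 51.1, 112 to 160 and 236 to 278 on the PDGF-BB arrays and 38.7 to 44.3, 119 to 143 and 287 to 309 on the vehicle arrays. None of these 12 genes of other cell types was called. None was listed at 0, but Itgam read only 1 on both PDGF-BB arrays and 1 and 5.29 on the vehicle arrays. Of the 4 fibroblast markers, 1 had both group means at or below 80.3, and the others passed that yardstick in at least 1 group. Array medians were 144 and 132 with PDGF-BB and 145 and 148 with vehicle. With 4 arrays in all, precision is limited throughout.

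Tead1, a DNA-binding partner of YAP that is also known as a regulator of muscle promoters, had intensities of 3810.0 and 3971 on the PDGF-BB arrays and of 4603 and 4490 on the vehicle arrays at its brighter probe set, 1389287_at. The PDGF-BB arrays were below both vehicle arrays, but the log2 fold change of -0.22 (SE 0.09, 95% interval -0.46 to 0.01) missed the threshold (adjusted p 0.145 by limma). Its other probe set, 1373808_at, read 1854 and 1810 with PDGF-BB and 2320 and 2304 with vehicle, also without overlap, a log2 fold change of -0.33 (SE 0.09, adjusted p 0.0553 by limma). The brighter probe set passed after quantile normalization (-0.38, adjusted p 0.0266 by limma) and with an intensity-dependent variance prior (0.00591).

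Tead4, another TEAD factor, was dimmer, and its probe set 1386083_at read 261 and 213 with PDGF-BB and 147 and 187 with vehicle. Both PDGF-BB arrays were above both vehicle arrays, and the log2 fold change was 0.47 (SE 0.17, 95% interval 0.03 to 0.91, adjusted p 0.116 by limma). The vehicle arrays differed from each other by 0.32 on the log2 scale, more than in 86.9% of probe sets. The call was made with array medians subtracted (0.0499), after cyclic loess (0.0457) and with dim probe sets left out (0.0279).

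The remaining TEAD genes were called, both lower. Tead2 read 251 and 243 with PDGF-BB and 711 and 643 with vehicle, so that the groups were far apart, a log2 fold change of -1.40 (SE 0.10, adjusted p 0.00273 by limma), or 2.63-fold lower. Tead3 read 993 and 868 with PDGF-BB and 1608 and 1625 with vehicle, a log2 fold change of -0.79 (SE 0.11, adjusted p 0.0116 by limma). Its dimmer probe set had a difference of -0.32 (adjusted p 0.0643 by limma), and the call of the brighter one ended without vehicle replicate 1 (0.0909) or vehicle replicate 2 (0.0911). For Wwtr1, which encodes TAZ, the paralogue of YAP, the PDGF-BB values of 1084 and 988 lay just above the vehicle values of 846 and 960, a log2 fold change of 0.20 (SE 0.11, adjusted p 0.287 by limma).

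Vgll proteins compete with YAP for TEAD factors through a short Tondu motif. Vgll3 read 998 and 914 with PDGF-BB and 974 and 1048 with vehicle, overlapping ranges, and its log2 fold change was -0.08 (SE 0.10, 95% interval -0.35 to 0.19, adjusted p 0.624 by limma). Vgll4, an inhibitor of TEAD activity, read 917 and 805 with PDGF-BB and 814 and 809 with vehicle, a log2 fold change of 0.08 (adjusted p 0.638 by limma) and a value of -0.012 once PDGF-BB replicate 1 was left out. Vgll1 and Vgll2 were at or below 20.9 on every array, under the highest Bacillus control. RefSeq annotates 2 starts for Vgll3 on chromosome 11. The window of the first is shown because it holds 1 TEAD word close to the start of a gene whose arrays overlapped between the groups. The word GGAATG, or CATTCC on the other strand, is in capitals.
Vgll3, GRCr8 chr11:17089342-17089641, plus strand: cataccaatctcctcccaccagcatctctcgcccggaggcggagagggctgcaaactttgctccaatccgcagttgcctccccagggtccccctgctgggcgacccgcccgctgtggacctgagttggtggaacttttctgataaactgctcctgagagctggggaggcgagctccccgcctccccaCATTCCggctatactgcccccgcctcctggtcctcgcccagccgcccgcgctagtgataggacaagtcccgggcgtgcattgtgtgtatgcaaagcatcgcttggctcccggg
This sequence, like the others below, is the strand of the gene, 5′ to 3′, from 250 bases before to 50 bases after the annotated start, in RefSeq's GRCr8 build. The window of the second Vgll3 start holds no TEAD word and 1 AP-1 word (TGANTCA, which reads the same on both strands).

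Lats2, a kinase that phosphorylates YAP and is itself a YAP target, read 2834 and 2704 with PDGF-BB and 3319 and 3427 with vehicle (probe set 1390207_at). Both PDGF-BB arrays were lower, a log2 fold change of -0.28 (SE 0.09, 95% interval -0.52 to -0.05), and the test missed the threshold (adjusted p 0.0891 by limma). It passed under 5 of 13 alternatives, including quantile normalization (0.0140) and cyclic loess (0.0300). Its paralogue Lats1, named for that relation, read 1081 and 931 with PDGF-BB and 1260.3 and 1249 with vehicle, a log2 fold change of -0.32 (SE 0.11, adjusted p 0.114 by limma).

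Ajuba encodes a LIM-domain scaffold that binds and inhibits Lats kinases. Its brighter probe set, 1373122_at, read 2895 and 2845 with PDGF-BB and 2872 and 2749 with vehicle, and the groups overlapped. The log2 fold change was 0.03 (SE 0.09, 95% interval -0.20 to 0.26, adjusted p 0.842 by limma), and its sign turned after quantile normalization (-0.13) and cyclic loess (-0.012). The second probe set, 1388230_at, read 913 and 822 with PDGF-BB and 772 and 815 with vehicle, a log2 fold change of 0.12 (adjusted p 0.444 by limma). Of its relatives, Limd1 read 341 and 274 with PDGF-BB and 147 and 155 with vehicle and rose by 0.94 (SE 0.13, adjusted p 0.0131 by limma), a call that ended without vehicle replicate 1 (0.0935) or vehicle replicate 2 (0.0807). The other relative, Wtip, read 428 and 335 with PDGF-BB and 526 and 505 with vehicle, a log2 fold change of -0.43 (SE 0.14, adjusted p 0.103 by limma). These LIM proteins thus had values in different directions, and the differences between genes were not tested.

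Amotl2 is an angiomotin, a junction and actin-binding protein that holds YAP in the cytoplasm, and it is a YAP target as well. Its probe set 1389546_at read 5262 and 5091 with PDGF-BB and 5476 and 5855 with vehicle. The PDGF-BB arrays were slightly lower without overlap, a log2 fold change of -0.13 (SE 0.09, 95% interval -0.37 to 0.12, adjusted p 0.382 by limma), and it passed after quantile normalization only (-0.27, adjusted p 0.0482). The other angiomotins, named as its relatives, changed by more and in opposite directions. Amotl1 read 2653 and 2385 with PDGF-BB and 876 and 991 with vehicle, so both PDGF-BB arrays were well above both vehicle arrays, and it rose by 1.42 (SE 0.12, adjusted p 0.00382 by limma). Amot read 199 and 168 with PDGF-BB and 431 and 440.2 with vehicle and fell by 1.18 (SE 0.11, adjusted p 0.00533 by limma). The second probe sets read the same way, with 0.45 for Amotl1 (adjusted p 0.0594 by limma) and -0.58 for Amot (adjusted p 0.0311 by limma). Without vehicle replicate 1 or vehicle replicate 2 the adjusted p of the brighter Amot probe set was 0.0513 and 0.0510. The promoter window of Amotl2 is shown as that of a target with 1 TEAD word (capitals) and no call.
Amotl2, GRCr8 chr8:112182376-112182675, plus strand: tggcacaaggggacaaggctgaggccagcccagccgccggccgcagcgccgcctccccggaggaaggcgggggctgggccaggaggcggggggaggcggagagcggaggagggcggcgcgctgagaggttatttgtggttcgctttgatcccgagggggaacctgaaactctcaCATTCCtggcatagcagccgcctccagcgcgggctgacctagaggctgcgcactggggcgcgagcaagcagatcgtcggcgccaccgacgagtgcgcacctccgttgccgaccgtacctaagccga

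Ccn1, formerly Cyr61, encodes a secreted matricellular protein that binds integrins and is an immediate early gene of serum and growth factors. Probe set 1368290_at read 803 and 1584 with PDGF-BB and 518 and 560 with vehicle. Both PDGF-BB arrays were above both vehicle arrays, by a group mean of 1194 ± 552 with PDGF-BB against 539 ± 29.2 with vehicle (SD, n = 2 each). The PDGF-BB arrays differed from each other by 0.97 on the log2 scale, more than in 99.5% of probe sets, whereas the vehicle arrays differed by 0.11. The log2 fold change was therefore 1.05 with a wide error (SE 0.34, 95% interval 0.14 to 1.95), and limma did not call it (adjusted p 0.0966). Leaving out PDGF-BB replicate 1 gave a log2 fold change of 1.53. When the other PDGF-BB array was dropped instead, the log2 value was 0.56, so the size of the increase rests on which of them is used. Ccn1 was called in 4 of 13 alternatives. Among them were dim probe sets left out (adjusted p 0.0159 by limma), an intensity-dependent variance prior (0.0278) and the replicate block (0.0263).

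Ccn2, formerly Ctgf, encodes connective tissue growth factor, a matricellular protein of fibrosis. Probe set 1367631_at was bright on all arrays, at 11026 and 11150 with PDGF-BB and 11392 and 11251 with vehicle. The PDGF-BB arrays were the lower ones without overlap, with group means of 11088 ± 87.5 with PDGF-BB and 11322 ± 99.6 with vehicle (SD, n = 2 each) and a log2 fold change of -0.03 (SE 0.08, 95% interval -0.26 to 0.20, adjusted p 0.838 by limma) that turned to 0.047 with array medians subtracted. Among the 125 genes with a mean above 8000, limma called 5.6%, against 27.7% of all genes, and whether such bright probe sets still respond in proportion to RNA was not tested. The family members Ccn3, Ccn4 and Ccn5 were not called. Ccn3 was also above 8000, at 11292 and 10968 with PDGF-BB and 10178 and 10871 with vehicle, a log2 fold change of 0.08 (adjusted p 0.581 by limma) and a value of -0.051 after cyclic loess. Ccn4 read 1464 and 1322 with PDGF-BB and 974 and 1126 with vehicle (0.40, SE 0.12, adjusted p 0.0785 by limma), and Ccn5 read 6164 and 6188 with PDGF-BB and 7521 and 7593 with vehicle (-0.29, SE 0.08, adjusted p 0.0752 by limma). In neither gene did the groups overlap, and 5 of 13 alternatives called Ccn4 and 6 of 13 called Ccn5.

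The promoters of Ccn1 and Ccn2 are shown because the genes are among the best known YAP-TEAD targets. The difference between their responses was not tested. TEAD words are in capitals. The Ccn2 window holds 3, all on the strand of the gene, with first bases 166, 101 and 92 bases before the start. The Ccn1 window holds 1, on the opposite strand, 113 bases before the start.
Ccn1, GRCr8 chr2:237225640-237225939, minus strand: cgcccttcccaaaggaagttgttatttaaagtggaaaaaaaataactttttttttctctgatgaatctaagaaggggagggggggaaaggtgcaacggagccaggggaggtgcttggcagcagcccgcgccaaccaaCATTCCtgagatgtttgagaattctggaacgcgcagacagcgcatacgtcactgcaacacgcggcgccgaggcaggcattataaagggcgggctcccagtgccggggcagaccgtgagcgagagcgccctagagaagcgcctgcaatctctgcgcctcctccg
Ccn2, GRCr8 chr1:22624565-22624864, minus strand: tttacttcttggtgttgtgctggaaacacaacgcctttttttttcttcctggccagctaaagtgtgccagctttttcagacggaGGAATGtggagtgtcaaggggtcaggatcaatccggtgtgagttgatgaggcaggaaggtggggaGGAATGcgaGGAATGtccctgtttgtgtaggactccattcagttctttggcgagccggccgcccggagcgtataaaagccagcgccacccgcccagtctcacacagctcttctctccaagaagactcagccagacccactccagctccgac

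Ankrd1, also called CARP, is a nuclear and sarcomeric ankyrin repeat protein of muscle. Probe set 1367664_at read 3316 and 3214 with PDGF-BB and 6309 and 6742 with vehicle. The second probe set, 1367665_at, read 3063 and 2924 with PDGF-BB and 5918 and 6501 with vehicle. In both, every PDGF-BB array was far below every vehicle array. The group means at the brighter probe set were 3265 ± 72.1 with PDGF-BB and 6525 ± 306 with vehicle (SD, n = 2 each). Ankrd1 fell by 0.99 (SE 0.09, 95% interval -1.24 to -0.75, adjusted p 0.00491 by limma) and by 1.05 (SE 0.10, adjusted p 0.00516 by limma) at the 2 probe sets. The direction held in all 13 alternatives, from -1.13 to -0.92, and the call ended in 1 of them, without vehicle replicate 2 (adjusted p 0.0546 by limma).

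**Figure D2:**
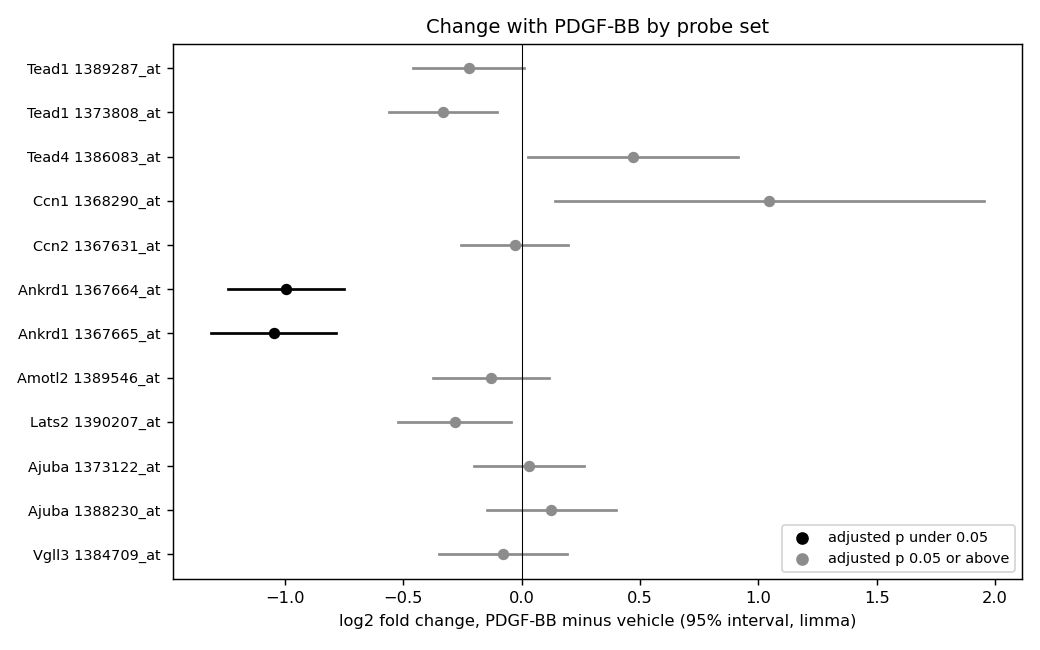
Log2 fold change, PDGF-BB minus vehicle, of the 12 member probe sets with 95% intervals from limma, black where the adjusted p was under 0.05. The 2 Ankrd1 probe sets lie at -0.99 and -1.05, and Ccn1 has the widest interval, 0.14 to 1.95.

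The TEAD word was counted in the promoter windows of all genes as background. It occurred at least once in 14.2% of 33469 windows and at least 3 times, as in Ccn2, in 0.0956%. Of the members, 6 had a window in the table, Ccn1, Ccn2, Yap1, Amotl2, Vgll3 and Ajuba, and each of these genes had at least 1 TEAD word, in 6 of their 7 windows. Tead1, Tead4, Ankrd1 and Lats2 had no entry. The AP-1 word was in 1 of the 7 member windows and in 7.33% of all windows, and the CArG box, the site of serum response factor, in 0 of 7 and in 1.64%. A word is a match of letters and not a measured binding site, and whether words go with a change was not tested. The measured members with a word had log2 fold changes of 1.05 (Ccn1), 0.03 (Ajuba), -0.03 (Ccn2), -0.08 (Vgll3) and -0.13 (Amotl2). Limma called none of these genes as reported, where 27.7% of all genes were called. Ankrd1, the only member called, is outside this comparison because it had no window. The value of Ccn2 was 0.047 with array medians subtracted, and that of Ajuba was -0.13 after quantile normalization. Of the further targets described below, 2 of 12 with a window held a TEAD word, Nuak2 and Ptpn14.

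**Figure D3:**
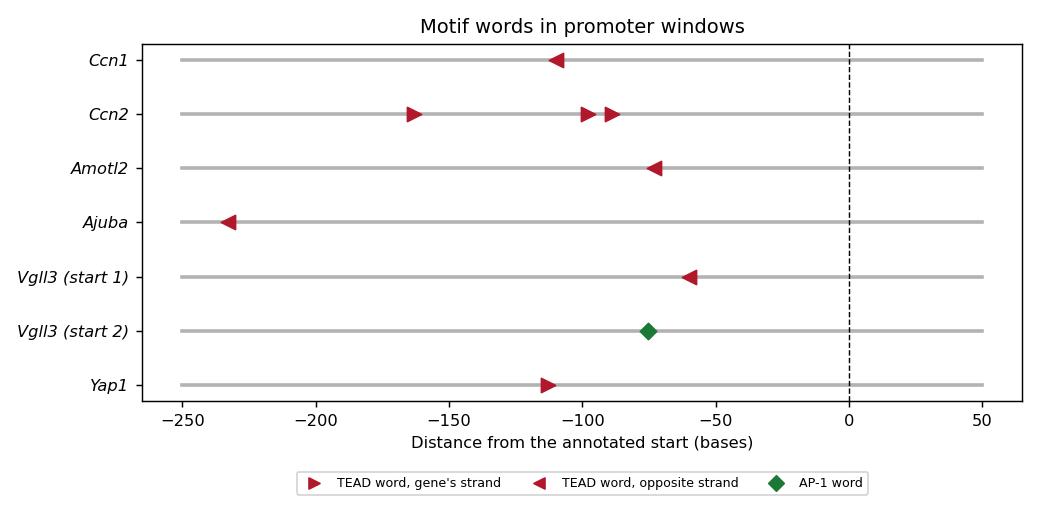
Promoter windows of the members, drawn from 250 bases before to 50 bases after the annotated start (dashed line), with TEAD words as red arrowheads that point right on the strand of the gene and left on the opposite strand, and the AP-1 word as a green diamond. Ccn2 has 3 TEAD words, the second Vgll3 window has none, and each other window has 1.

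Other targets were taken from a published panel of 22 YAP and TAZ target genes, of which 5 are members. Of the 17 others, 15 were measured. Limma called 8 higher and 1 lower, and 6 did not pass, with a median log2 fold change of 0.54, whereas among all genes 12.4% were called higher and 15.3% lower and the median was -0.03. With the 5 members the panel had 20 measured genes, 8 higher, 2 lower and 10 not passed, and a median of 0.16. Nt5e, or CD73, the surface enzyme that makes adenosine, read 643 and 509 with PDGF-BB and 26.4 and 23.0 with vehicle and rose by 3.85 (SE 0.14, adjusted p 0.000720 by limma). Its vehicle level was below the highest Bacillus control, so the size of this increase rests on values near background. Fjx1, whose fly homologue modulates Fat and Dachsous cadherins, read 551 and 485 with PDGF-BB and 98.3 and 81.3 with vehicle, an increase of 2.34 (SE 0.13, adjusted p 0.00163 by limma). Its vehicle values were not far above the highest Bacillus control, and the increase was 1.92 with an offset of 64 and 2.52 with an offset of 1. Gadd45a, a growth arrest and DNA damage gene, read 1589 and 1411 with PDGF-BB and 467 and 509.5 with vehicle and rose by 1.59 (SE 0.11, adjusted p 0.00266 by limma). The receptor tyrosine kinase gene Axl read 5378 and 5337 with PDGF-BB and 2593 and 2596 with vehicle and rose by 1.04 (SE 0.08, adjusted p 0.00380 by limma). In these 4 genes both PDGF-BB arrays were well above both vehicle arrays.

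The other panel calls are outside the rule for named genes and were picked after their values were seen. F3, Myof, Nuak2 and Arhgef17 rose by 1.40, 0.71, 0.63 and 0.54. Ptpn14, a phosphatase that binds YAP and retains it in the cytoplasm, was the panel gene that fell, by 1.01 (SE 0.09, adjusted p 0.00454 by limma), at 627 and 599 with PDGF-BB and 1227 and 1279 with vehicle. Without vehicle replicate 1 or vehicle replicate 2, the panel had 5 calls, all higher: Nt5e, Fjx1, Gadd45a, Axl and F3. For Ptpn14 the adjusted p was then 0.050001 and 0.0526, neither of them under the threshold.

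Regulators upstream of YAP were called in both directions. Of 25 listed, 23 were measured, 6 rose, 5 fell and 12 did not pass, where 12.4% of all genes were called higher and 15.3% lower. The median log2 fold change of the list was 0.0083, against -0.03 for all genes. Frmd6, a FERM-domain protein that acts upstream of the Hippo kinases, had the smallest p-value, at 4001 and 3797 with PDGF-BB and 534 and 585 with vehicle. It rose by 2.77 (SE 0.10, adjusted p 0.000710 by limma), a 6.80-fold increase, with a range of 2.67 to 2.84 over 13 alternatives. Rassf1, a scaffold that binds Stk3 and Stk4, read 2603 and 2390.2 with PDGF-BB and 1042 and 1063 with vehicle and rose by 1.23 (SE 0.09, adjusted p 0.00336 by limma). Its second probe set was under the highest Bacillus control on every array and was not called (0.22, adjusted p 0.326 by limma). Wwc1, or KIBRA, an activator of Lats kinases, moved the other way, at 525 and 445 with PDGF-BB and 1179 and 1256 with vehicle, and fell by 1.30 (SE 0.12, adjusted p 0.00486 by limma) and by 1.39 at its second probe set. Besides Amotl1 and Limd1, the other increases were Map4k4, a kinase that phosphorylates Lats, by 0.76, and Btrc, a ubiquitin ligase subunit, by 0.79, and besides Amot the other decreases were Wwc2 by 0.94, Stk3 by 0.58 and the cadherin gene Fat4 by 0.79, all picked after their values were seen. Without vehicle replicate 1 or vehicle replicate 2, 4 of these calls were left, those of Frmd6, Rassf1, Amotl1 and Wwc1. Stk3 was not called when any 1 of the 4 arrays was left out, with adjusted p-values of 0.0535 to 0.162.

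**Figure D4:**
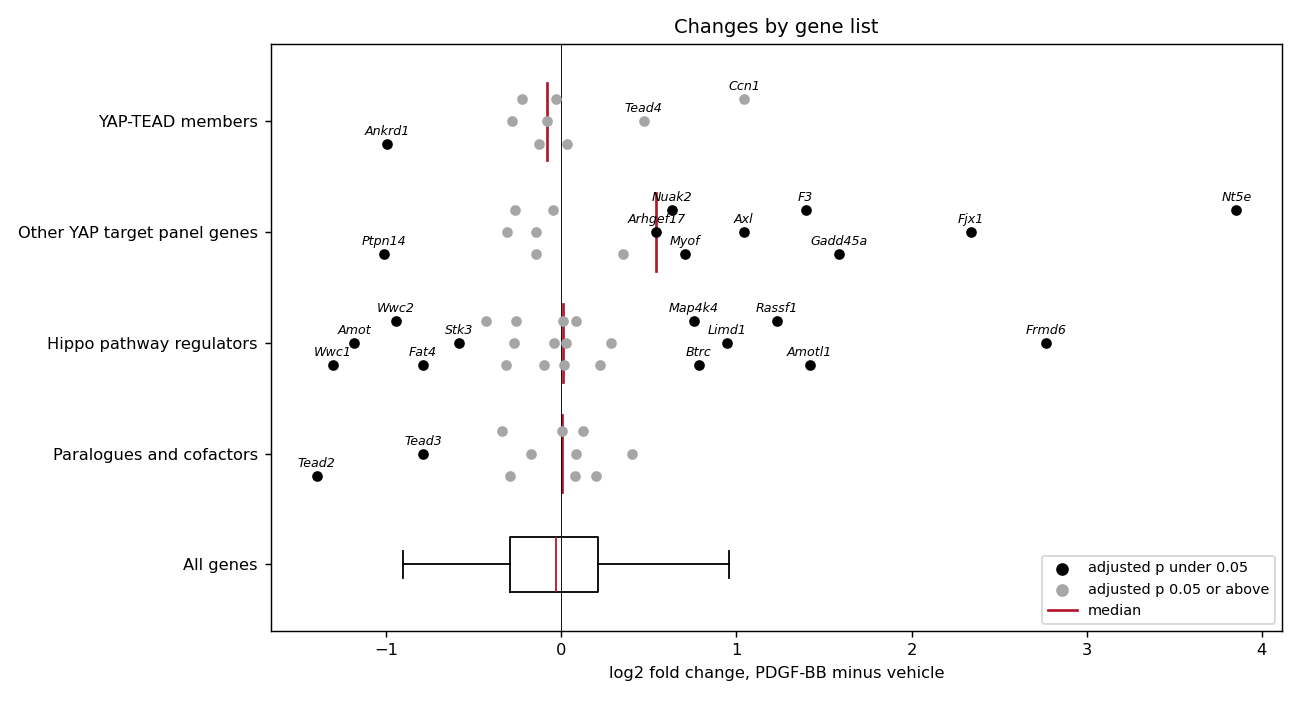
Log2 fold change, PDGF-BB minus vehicle, of each measured gene in the 4 lists, black where the limma adjusted p was under 0.05 and grey otherwise, with red lines at list medians, over a box for all 12922 genes (median, quartiles, whiskers at the 5th and 95th percentile). The called genes of the target panel lie to the right except Ptpn14, and the called regulators lie on both sides of 0.

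Genes with the most similar pattern over the 4 arrays were found by Euclidean distance between log2 values centred on each gene's mean, which describes these arrays only. Nearest to Ankrd1 were Cyp4v3 (distance 0.018), Enc1 (0.021) and Mccc1 (0.028), which had log2 fold changes of -0.98, -1.01 and -0.98. Around Vgll3 lay Stx7, Erap1 and Ldlrad4, at distances of 0.0086, 0.013 and 0.014. No gene was that close to Ccn1: Stab2, Cd28 and Kcnk5 were nearest, at 0.21, 0.28 and 0.35. Stab2 read 15.4 and 41.0 with PDGF-BB and 1.37 and 2.37 with vehicle, under the highest Bacillus control. It thus shares with Ccn1 the higher value on PDGF-BB replicate 2 but at a level near background. The same limit holds for Cd28, at most 23.1 on any array. Kcnk5 was near background too, at 33.1 and 81.1 with PDGF-BB and 13.1 and 27.8 with vehicle.

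**Figure D5:**
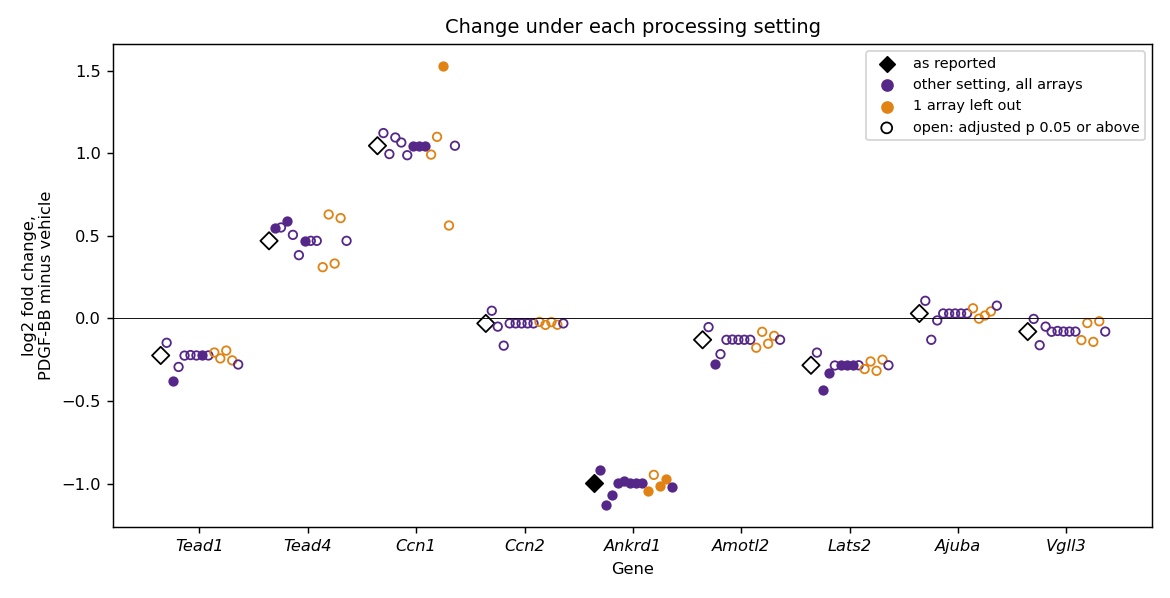
Log2 fold change, PDGF-BB minus vehicle, of each member gene as reported (black diamond), under other settings with all arrays (purple) and with 1 array left out (orange), filled where the limma adjusted p was under 0.05. Ankrd1 stayed between -1.13 and -0.92, while Ccn1 ranged over 0.56 to 1.53.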

How the data were processed

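Probe set intensities on a linear scale were deposited by the authors as 1 table of 4 columns. The software, background correction and scaling behind them are not given in the sources used, and the linear scale was read from the values. Groups and replicate numbers came from sample titles. Of 23764 probe sets, 57 Affymetrix controls were left out. A platform annotation gave 1 symbol for 17279 of the 23707 tested probe sets, several for 373 and none for 6055, and the gene identifiers of 9 of the 9 measured members matched RefSeq. Each gene was represented by its brightest probe set, by the mean of the 4 arrays. The tested value was log2(intensity + 16) with no scaling added. Two-sided tests used limma 3.58.1 (lmFit, eBayes; R 4.3.3), p-values were adjusted by Benjamini-Hochberg over 23707 probe sets, and the threshold was 0.05. Residual degrees of freedom were 2, and the variance prior added 2.40. The procedure was tested on simulated data. No 2 arrays were identical.

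Named genes were all members, measured paralogues and cofactors, up to 4 called genes of each other list with the smallest p, the 3 nearest in pattern to Ccn1, Ankrd1 and Vgll3, and cell type markers. Lats1, Limd1, Wtip and Amot were added as relatives of members. The listed paralogues Ankrd2 and Ankrd23 were under the highest Bacillus control on every array and were not called. Their log2 fold changes were 0.13 and 0.0061 (adjusted p 0.438 and 0.995 by limma). Members, lists and tests were chosen with earlier results of these data known. Genes on the lists that lack such a probe set, Mob1a, Mob1b, Crim1, Foxf2, Cdh5 and Tek, were not analysed here.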

Additional observations from a re-analysis of the deposited data

How the results depend on the processing

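All 13 alternatives were run, 12 of them for the count over probe sets. Over the named genes of the members and pathway lists and the 3 smooth muscle markers called lower, 498 comparisons with the value as reported kept direction and side of the threshold, 41 lost the call, 33 gained it and 9 changed sign. The signs that turned were those of Ccn2 with array medians subtracted (0.047), Ajuba after quantile normalization (-0.13), cyclic loess (-0.012) and without vehicle replicate 2 (-0.0013; range without 1 array -0.0013 to 0.061), Vgll4 without PDGF-BB replicate 1 (-0.012; range -0.012 to 0.17), Ccn3 after cyclic loess (-0.051), and Ankrd23, near background at 0.0061 as reported, with an offset of 1 (-0.019), when vehicle replicate 1 was left out (-0.15) or PDGF-BB replicate 2 (-0.42; range -0.42 to 0.43). Called members numbered 1 as reported, 2 with array medians subtracted, 4 after quantile normalization, 3 after cyclic loess, 2 with an offset of 64, 4 with dim probe sets left out and 4 with an intensity trend. Calls over all probe sets rose too. Of 23707 they numbered 5779 as reported, 6957 with medians subtracted, 7593 after quantile normalization and 7130 after cyclic loess. They were 7279 with an offset of 64, 7392 with an intensity trend and 7547 of 14579 with dim probe sets left out. Called paralogues and cofactors numbered 2 as reported and 4 after cyclic loess, with an offset of 64, with dim probe sets left out or with an intensity trend. Fewer probe sets were tested with dim ones left out, and the cause of the changes in these counts was not tested for any setting. Leaving out 1 array gave 1272 to 4223 called probe sets (5779 with all), 0 to 2 members, 4 to 11 Hippo regulators (11), 1 to 2 paralogues and cofactors and 5 to 8 panel genes (9). Each of these fits has fewer samples and a single array in 1 group, which is assumed to vary like the others. Replicate numbers were not shown to pair the arrays, since deviations of same-numbered arrays correlated at -0.0978 over probe sets. With the replicate block, 2 members were called, Ankrd1 and Ccn1 (adjusted p 0.0263), the regulators kept 11 calls and the panel 9, and 4954 probe sets were called in all.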

Other observations

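Several target genes had probe sets that read differently. Arhgef17 was represented by a probe set that was higher with PDGF-BB (0.54 on the log2 scale, limma adjusted p 0.0398), while its second probe set read 546 and 444.5 with PDGF-BB and 615 and 655 with vehicle (-0.35, limma adjusted p 0.131), and the mean over its 3 probe sets was 0.05 (limma adjusted p 0.796). For Ptpn14, 2 of 4 probe sets were called lower, at -1.01 and -1.10, and the other 2, at 0.06 and -0.11, were not called. The probe set at 0.06 had group means of 101 with PDGF-BB and 96.3 with vehicle, above the highest Bacillus control. The probe set at -0.11 was below that control on every array. Asap1 was not called at its brightest probe set (-0.31, limma adjusted p 0.0939), but another was called lower (-0.38, limma adjusted p 0.0423). Its remaining probe sets, from -0.32 to 0.02, were not called. The promoter window of Wtip held 4 TEAD words, more than any member's, and its log2 fold change was -0.43 (limma adjusted p 0.103).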
